A study of Mus musculus with 6 samples.

Results

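Oligodendrocyte progenitor cells (OPCs), the dividing cells from which myelinating oligodendrocytes arise, were followed through 10 of their genes in bulk RNA-seq of O4-positive brain cells. The 10 genes were Pdgfra, Cspg4, Ptprz1, Vcan, Cspg5, Lhfpl3, C1ql1, Matn4, Tnr and Xylt1, picked by symbol, and each matched 1 of the 55492 genes of the deposited table. All 10 were among the 15245 genes with a mean abundance high enough to be tested. The cells came from whole brains of untreated mice aged 16 days, 3 wild type (WT) and 3 Npc1-/-, with 1 poly(A) library per mouse. Npc1-/- mice lack NPC1, a lysosomal protein that exports cholesterol, in every cell of the body. They carry the Npc1 nih allele and were bred as F1 hybrids of BALB/cJ and C57BL6/J parents. Cells were taken with magnetic beads against O4, a surface lipid antigen that appears late in the progenitor stage, so progenitors that do not yet carry O4 are sampled poorly. In bulk RNA, fewer cells of a type and less RNA per cell cannot be told apart.

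OPCs divide in response to platelet-derived growth factor, which they bind through PDGFRA, and they leave the cell cycle as they differentiate. Their surface and surroundings are rich in chondroitin sulfate proteoglycans, core proteins that carry long sulfated sugar chains. NG2 (the product of Cspg4), PTPRZ1, versican (Vcan) and neuroglycan C (Cspg5) are such core proteins, and XYLT1 attaches the first sugar of the chain. Tenascin R (Tnr) and matrilin 4 (Matn4) are matrix glycoproteins, C1QL1 is a secreted protein with a C1q domain, and LHFPL3 is a small tetraspan membrane protein. Transcripts of most of these genes become scarcer as the cells mature. Several are not confined to the lineage, since astrocytes also express Ptprz1 and Cspg5, pericytes express Cspg4, and meningeal fibroblasts express Pdgfra.

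Abundance is given as scaled TPM, which is TPM (transcript abundance per unit of transcript length, brought to the same total in every library) divided by a size factor for each library. The libraries held 40250000 to 50250000 fragments by the step between low FPKM values. Per library, a progenitor gene had from about 760 fragments (C1ql1) to about 49295 (Tnr), estimated with the longest transcript, which is too many where shorter transcripts are used. Npc1 itself was 43.5 ± 2.21 scaled TPM in WT and 4.41 ± 0.726 in Npc1-/- (SD, n = 3 each), a log2 difference of -3.17 (SE 0.124, limma adjusted p = 0.000398), with no overlap between the labelled genotypes. Npc1-/- replicate 3 stood apart in that it had 15.6 TPM of Xist RNA as deposited, where the other libraries had at most 0.01, and listed Kdm5d, Uty, Ddx3y and Eif2s3y, which lie on the Y chromosome, at 0. Sex is not in the labels, but this is the pattern of a female mouse, and every other library held RNA of these Y genes, as males do. Differences between replicate 3 and the other mutants therefore cannot be told apart from sex. Genes that define the O4 lineage were abundant in both groups, with Olig1 at 533 ± 55.6 and 545 ± 16.4 scaled TPM.

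No progenitor gene passed the test between the genotypes, and the 3 mutant mice differed in where they lay against the WT mice. Of the 10 genes, 0 were called (limma adjusted p below 0.05 and a log2 fold change past 0.1 in size), beside 0.813% of all genes tested (0.4% higher and 0.413% lower in Npc1-/-). An unadjusted p below 0.05 was reached by 1 of the 10, Lhfpl3, beside 22.2% of all genes. In 0 of the 10 were the WT and Npc1-/- values fully apart, beside 27.5% of all genes. The median log2 fold change was -0.04 over the 10 genes and 0.01 over all genes, with 4 of the 10 above 0 and 6 below. The mutant values spread widely: across the 3 Npc1-/- mice the median log2 range of a progenitor gene was 0.81, against 0.24 across the 3 WT mice. Over all genes the same medians were 0.34 and 0.29. The mutant range was the wider one in 10 of the 10 genes, beside 60.6% of all genes.

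**Figure D1:**
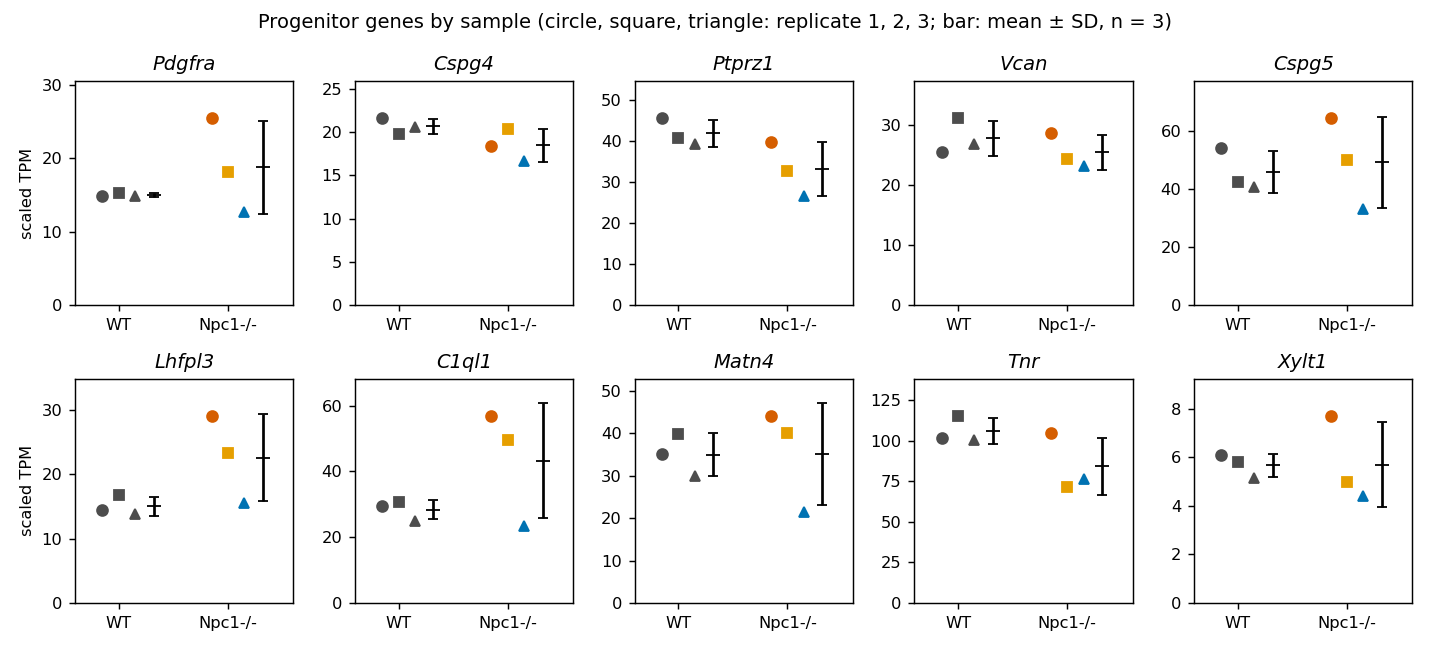
Scaled TPM (vertical axis, from 0) of each of the 10 progenitor genes in the 3 WT (grey) and 3 Npc1-/- (coloured) mice, with the mean and SD of each group as a black bar. Npc1-/- replicate 1 (circle) lies highest of the mutants in 9 panels and Npc1-/- replicate 3 (triangle) lowest in 9.

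In WT cells the progenitor genes ranked, per transcript length, from Tnr at 106 scaled TPM through Cspg5 (45.8), Ptprz1 (41.8), Matn4 (35.0), C1ql1 (28.4), Vcan (27.8), Cspg4 (20.7), Lhfpl3 (15.028) and Pdgfra (15.001) to Xylt1 (5.66). The WT ranges of neighbours in this order were apart only between Tnr and Cspg5, between Vcan and Cspg4, between Cspg4 and Lhfpl3, and between Pdgfra and Xylt1. The other neighbouring pairs overlapped, so their order is not resolved.

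Pdgfra (ENSMUSG00000029231, GRCm38 chr5:75152292-75198215, plus strand) encodes the receptor that drives OPC division. Its scaled TPM was 14.9, 15.2 and 14.9 in WT replicates 1 to 3 and 25.4, 18.1 and 12.7 in Npc1-/- replicates 1 to 3. The WT mice were nearly equal, and the mutants lay above them in 2 mice and below them in 1. The log2 fold change was 0.26 (SE 0.223, 95% interval -0.26 to 0.78, adjusted p = 0.554).

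Lhfpl3 (ENSMUSG00000106379, chr5:22746059-23275597, plus strand), the tetraspan gene, had the highest fold change of the 10. It was at 14.5, 16.7 and 13.9 scaled TPM in WT and 29.1, 23.3 and 15.5 in Npc1-/-. Npc1-/- replicates 1 and 2 were above every WT mouse and replicate 3 fell inside the WT range. Its log2 fold change was 0.53 (SE 0.216, interval 0.03 to 1.04), with an unadjusted p of 0.0418 by limma that became 0.205 after adjustment over all genes. C1ql1 (ENSMUSG00000045532, chr11:102939264-102946688, minus strand), whose product is a ligand of the adhesion receptor ADGRB3, followed the same layout. It had 29.6, 30.6 and 25.0 scaled TPM in the WT mice and 56.9, 49.5 and 23.5 in the mutants, so that 2 mutants were above the WT range and replicate 3 just below it. The log2 fold change of C1ql1 was 0.51 (SE 0.307, interval -0.21 to 1.23, adjusted p = 0.390). Without Npc1-/- replicate 3, both genes passed the test: C1ql1 had a log2 fold change of 0.89 (adjusted p = 0.0323) and Lhfpl3 0.77 (adjusted p = 0.0449). That smaller fit compared only mice with Y-linked RNA and called 3.13% of all genes. No fit that left out another mouse called either gene.

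Ptprz1 (ENSMUSG00000068748, chr6:22875502-23052916, plus strand) encodes a receptor tyrosine phosphatase with chondroitin sulfate chains that binds pleiotrophin, and it had the lowest fold change of the 10. Scaled TPM was 45.4, 40.7 and 39.3 in WT and 39.7, 32.7 and 26.7 in Npc1-/-. Npc1-/- replicate 1 stayed within the WT range and the other mutants were below it. The log2 fold change was -0.35 (SE 0.149, interval -0.70 to 0.0004, adjusted p = 0.225). Tnr (ENSMUSG00000015829, chr1:159523769-159931729, plus strand), the matrix glycoprotein of perineuronal nets, had nearly the same fold change, -0.35 (SE 0.152, interval -0.70 to 0.01, adjusted p = 0.237). It was at 102, 115 and 101 scaled TPM in WT and 105, 71.8 and 76.6 in Npc1-/-. Here too replicate 1 was within the WT range and replicates 2 and 3 were below it, and Tnr was the exception in which replicate 2, not 3, was the lowest mutant.

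Sequence upstream of the start site is shown for 4 of these genes. Among the progenitor genes with an entry in the reference used, Lhfpl3 and Pdgfra had the highest fold changes and Ptprz1 and Tnr the lowest. C1ql1, whose fold change was above that of Pdgfra, had no entry, nor had Cspg5 and Xylt1. The sequences are from RefSeq on GRCm38.p6, each ending at the base before the RefSeq start, which for Lhfpl3 and Pdgfra lies upstream of the start of the GENCODE gene given above, and are written 5' to 3' on the gene's strand. Capitals mark matches to ACAAAG on either strand, the core bound by SOX factors, and to the palindrome CAGCTG, an E-box of the kind bound by OLIG factors; the motifs do not overlap.
Lhfpl3 (chr5:22745804-22746053, + strand): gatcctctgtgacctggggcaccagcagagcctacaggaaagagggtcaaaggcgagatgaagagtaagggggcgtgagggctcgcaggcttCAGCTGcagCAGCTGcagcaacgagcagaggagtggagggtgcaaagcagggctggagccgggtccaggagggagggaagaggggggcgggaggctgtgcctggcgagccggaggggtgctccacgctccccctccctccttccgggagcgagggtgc
Pdgfra (chr5:75152001-75152250, + strand): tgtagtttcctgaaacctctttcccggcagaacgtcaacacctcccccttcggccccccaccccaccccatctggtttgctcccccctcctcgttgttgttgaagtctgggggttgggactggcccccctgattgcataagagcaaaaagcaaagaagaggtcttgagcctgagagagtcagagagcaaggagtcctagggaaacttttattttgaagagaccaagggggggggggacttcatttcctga
Ptprz1 (chr6:22875252-22875501, + strand): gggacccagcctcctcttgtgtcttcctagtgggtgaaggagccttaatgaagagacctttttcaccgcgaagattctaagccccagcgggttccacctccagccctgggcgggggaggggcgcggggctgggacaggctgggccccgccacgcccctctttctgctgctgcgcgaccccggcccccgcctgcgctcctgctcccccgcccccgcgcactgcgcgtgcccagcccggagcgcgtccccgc
Tnr (chr1:159523519-159523768, + strand): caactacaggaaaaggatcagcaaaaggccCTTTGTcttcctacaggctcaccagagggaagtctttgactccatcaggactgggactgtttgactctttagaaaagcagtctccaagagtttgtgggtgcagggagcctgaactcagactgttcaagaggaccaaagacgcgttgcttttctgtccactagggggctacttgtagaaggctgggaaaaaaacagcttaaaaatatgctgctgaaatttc
Lhfpl3 held 2 CAGCTG matches and Tnr held 1 ACAAAG match, on the opposite strand, while Pdgfra and Ptprz1 held neither word in this window. Among 27025 mouse promoter windows of the same length, 12.8% held CAGCTG and 16.5% held ACAAAG. The 4 windows differed in base composition, with a GC content of 46.8% in Tnr, 54.4% in Pdgfra, 67.2% in Lhfpl3 and 71.6% in Ptprz1, around a median of 52% over all windows. CG dinucleotides numbered 2, 4, 11 and 22 in the same order. These are matches of letters and say nothing of which factors bind.

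The remaining proteoglycan cores had intervals that took in 0. Cspg4 (ENSMUSG00000032911, chr9:56865033-56899870, plus strand), the NG2 gene, was at 21.6, 19.8 and 20.6 scaled TPM in WT and 18.4, 20.4 and 16.6 in Npc1-/-. It was the only one of the 10 in which Npc1-/- replicate 1 was below the WT range, and replicate 2 was the highest mutant. Its log2 fold change was -0.16 (SE 0.1004, interval -0.40 to 0.08, adjusted p = 0.407). Vcan (ENSMUSG00000021614, chr13:89655312-89742509, minus strand), the gene of the large secreted proteoglycan versican, was at 25.5, 31.1 and 26.8 in WT and 28.8, 24.4 and 23.3 in Npc1-/-. Replicate 1 was within the WT range, the other mutants were below it, and the log2 fold change was -0.13 (SE 0.118, adjusted p = 0.595). Cspg5 (ENSMUSG00000032482, chr9:110243783-110262576, plus strand), encoding the membrane proteoglycan neuroglycan C, was at 54.1, 42.7 and 40.7 in WT and 64.5, 50.2 and 33.1 in Npc1-/-. Npc1-/- replicate 1 was above the WT range, replicate 2 within and replicate 3 below it, with a log2 fold change of 0.06 (SE 0.238, adjusted p = 0.910).

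Matn4 and Xylt1 had means that barely differed over mutant mice that lay far apart. Matn4 (ENSMUSG00000016995, chr2:164389393-164405160, minus strand), the matrilin gene, was at 35.1, 39.9 and 29.9 scaled TPM in WT and 44.1, 40.1 and 21.5 in Npc1-/-. Replicate 1 was above the WT range, replicate 2 at its upper edge (counted as above), and replicate 3 well below, giving a log2 fold change of -0.05 (SE 0.264, interval -0.67 to 0.58, adjusted p = 0.942). Xylt1 (ENSMUSG00000030657, chr7:117380979-117673580, plus strand), the enzyme gene, was at 6.07, 5.79 and 5.12 in WT and 7.69, 4.98 and 4.39 in Npc1-/-. Replicate 1 was above all WT mice and the other mutants below them, and the log2 fold change was -0.03 (SE 0.198, interval -0.49 to 0.44, adjusted p = 0.954).

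**Figure D2:**
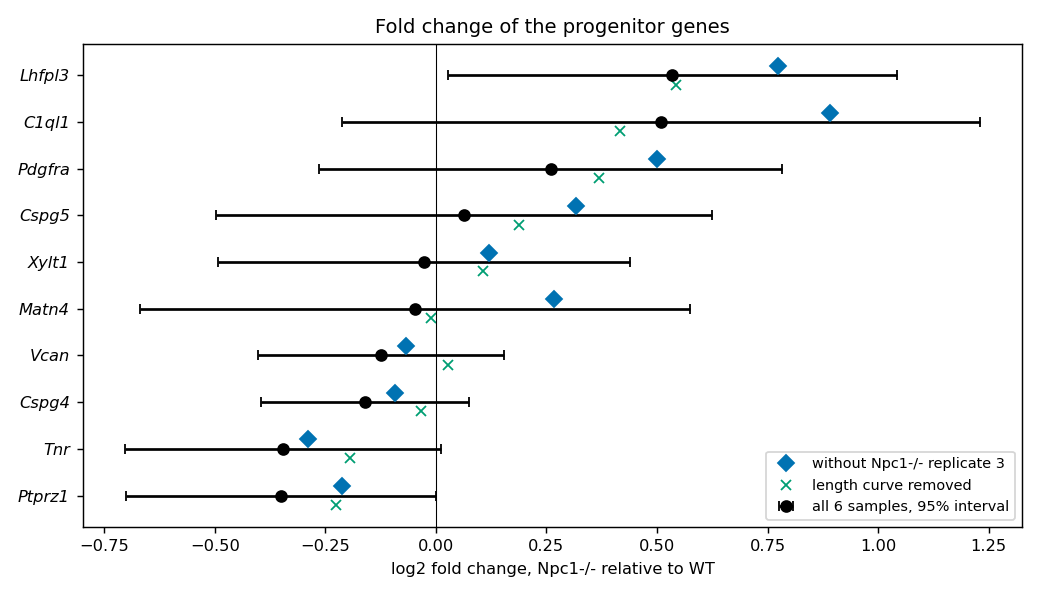
Log2 fold change (horizontal axis) of Npc1-/- relative to WT for the 10 progenitor genes, in order of size. Black circles and bars give the limma estimate from all 6 mice with its 95% interval, blue diamonds the estimate without Npc1-/- replicate 3, and green crosses the estimate after a curve on transcript length was removed; the diamonds lie to the right of the circles for all 10 genes.

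Taken singly, the mutant mice placed the progenitor genes on different sides of WT. In Npc1-/- replicate 1, 6 of the 10 genes were above all 3 WT mice (Pdgfra, Cspg5, Lhfpl3, C1ql1, Matn4 and Xylt1), 3 were within the WT range and only Cspg4 was below, beside 32.3% above and 28.2% below among all genes. The median log2 difference from the WT mean was 0.38 over the 10 genes, from -0.16 (Cspg4) to 0.99 (C1ql1). In Npc1-/- replicate 2, 4 were above (Pdgfra, Lhfpl3, C1ql1 and Matn4), 2 within and 4 below (Ptprz1, Vcan, Tnr and Xylt1), beside 33.5% and 32.8% of all genes, with a median of 0.06. In Npc1-/- replicate 3, none of the 10 was above, Lhfpl3 was within, and the other 9 were below, beside 33.9% and 35.4% of all genes, with a median of -0.32. The lowest difference there was -0.68, in Matn4. Each of these placements rests on 1 mouse and carries no test. Npc1-/- replicate 3 is also the mouse with Xist and without Y-linked RNA, and the part of sex was not tested.

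**Figure D3:**
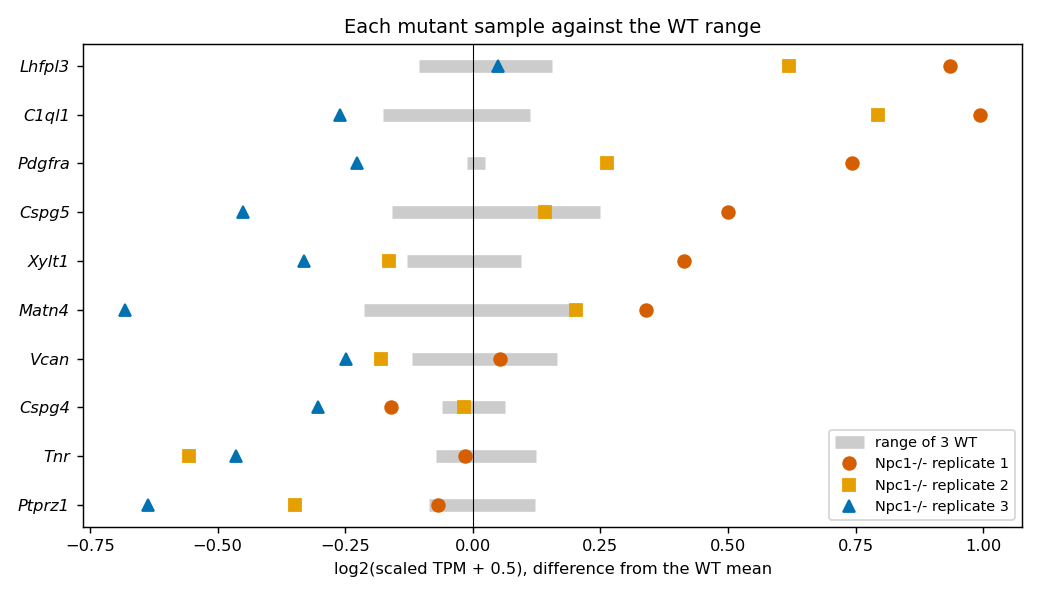
Difference of each Npc1-/- mouse from the WT mean on the log2(scaled TPM + 0.5) scale (horizontal axis) for the 10 progenitor genes, with the range of the 3 WT mice as a grey bar. The circles of replicate 1 reach 0.99 and the triangles of replicate 3 reach -0.68.

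Between mutants, Npc1-/- replicate 1 exceeded replicate 3 in 10 of the 10 genes, beside 48.2% of all genes, by a median of 0.81 on the log2 scale and by 0.14 (Cspg4) to 1.25 (C1ql1). In linear terms the ratio of replicate 1 to replicate 3 was 2.41 for C1ql1, 2.05 for Matn4, 2.00 for Pdgfra and 1.11 for Cspg4. The order replicate 1, then 2, then 3 held in 8 of the 10 genes, all but Cspg4 and Tnr, beside 22.5% of all genes. Among WT mice the differences were smaller, with replicate 3 the lowest in 7 of the 10 genes, beside 34.8% of all genes. WT replicate 1 exceeded WT replicate 3 in 8 of 10, beside 50.2% of all genes, by a median of 0.14 on the log2 scale. WT replicate 2 exceeded WT replicate 3 in 9 of 10, beside 50.4%, by a median of 0.18. The order replicate 1, 2, 3 held in 3 of the 10 in WT, beside 21.7% of all genes. These counts describe genes measured in the same libraries and are not independent of each other.

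**Figure D4:**
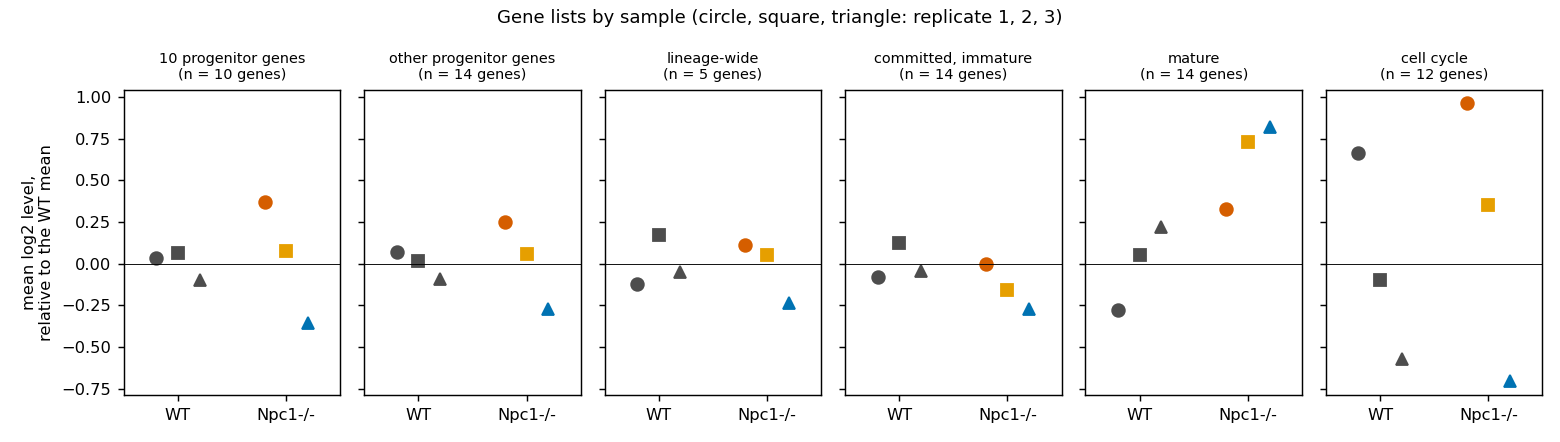
Mean log2 level of 6 gene lists in each mouse relative to the WT mean (vertical axis), WT in grey and Npc1-/- in colour, with the replicate number given by the symbol. The 10 progenitor genes run from 0.37 to -0.36 across the mutants and the cell cycle genes from 0.96 to -0.70, while the mature genes run from 0.33 to 0.82.

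Other genes of the progenitor stage were also mostly highest in Npc1-/- replicate 1 and lowest in replicate 3. Of 14 further OPC genes, 0 were called by limma (at an unadjusted p below 0.05, 2 higher and 3 lower) and their median log2 fold change was 0.00, while Npc1-/- replicate 1 exceeded replicate 3 in 13 of them and 9 of the 14 were below the WT range in replicate 3, beside 48.2% and 35.4% of all genes. The exception was Scrg1, which was at 96.4, 133 and 144 scaled TPM in WT and 100.1, 138 and 148 in Npc1-/-. The WT mice were ordered similarly, with WT replicate 1 above WT replicate 3 in 10 of the 14, beside 50.2% of all genes. The full order replicate 1, 2, 3 held in 10 of the 14 in Npc1-/- and in 9 of the 14 in WT. Over all genes the shares were 22.5% and 21.7%. Bcan, the brevican gene and the most abundant of this list, was at 241, 225 and 207 in WT and 241, 219 and 176 in Npc1-/- (log2 fold change -0.09, adjusted p = 0.751). Only Cacng4 had all 3 mutants above all 3 WT mice (23.0, 21.9 and 19.7 in WT against 41.7, 41.4 and 26.1), without being called (log2 fold change 0.72, adjusted p = 0.0861), and only Luzp2 had all 3 below (53.7, 56.7 and 52.4 against 50.02, 43.7 and 43.4), with a log2 fold change of -0.25 (adjusted p = 0.165). Both are named after their values were seen. Among all genes, 13.3% had all mutants above all WT mice and 14.2% had all mutants below them.

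Cell cycle genes, which dividing progenitors express, were ordered in the same way among the mutants and, but for Cdk1, among WT mice. The order replicate 1, 2, 3 held in 12 of 12 in Npc1-/- and in 11 of 12 in WT, beside 22.5% and 21.7% of all genes. Npc1-/- replicate 1 exceeded replicate 3 in 12 of 12 of them, and WT replicate 1 exceeded WT replicate 3 in 12 of 12, beside 48.2% and 50.2% of all genes. By limma 0 of 12 were called (0 also at an unadjusted p below 0.05), with a median log2 fold change of 0.21. Top2a, the DNA topoisomerase of dividing cells, was at 6.19, 2.58 and 1.32 scaled TPM in WT and 8.59, 4.56 and 1.00 in Npc1-/-. Cdk1, the mitotic kinase, was at 6.43, 2.11 and 2.52 in WT and 7.01, 5.46 and 1.27 in Npc1-/-. Unlike the cell cycle genes, the 10 progenitor genes had WT means close together, at 0.04, 0.06 and -0.10 relative to the WT average on the log2 scale, against 0.67, -0.10 and -0.57 for the cell cycle genes.

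Mature oligodendrocyte genes had the reverse order. Their mean log2 level relative to WT was 0.33, 0.73 and 0.82 in Npc1-/- replicates 1 to 3, and replicate 1 exceeded replicate 3 in 3 of 14. The WT mice were ordered alike, at -0.27, 0.05 and 0.22, with replicate 1 above replicate 3 in 1 of 14. All 14 had fold changes above 0, with a median of 0.52, and 0 of 14 were called by limma, though 7 had an unadjusted p below 0.05, beside 22.2% of all genes. Mbp, which encodes myelin basic protein, had 145090, 200320 and 201810 scaled TPM in WT and 183640, 289010 and 359520 in Npc1-/- (log2 fold change 0.57, adjusted p = 0.765). Committed and immature oligodendrocyte genes were at 0.00, -0.15 and -0.27 in the mutants, with 0 of 14 called by limma (1 higher and 5 lower at an unadjusted p below 0.05). The lineage-wide genes Olig1, Olig2, Sox10, Nkx2-2 and Cnp were at 0.11, 0.05 and -0.23. When libraries were scaled to those 5 lineage-wide genes, a setting chosen after seeing the data, the number of progenitor genes below the WT range in Npc1-/- replicate 3 went from 9 to 4 and in replicate 1 from 1 to 3.

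Among genes of the PDGF family and genes for relatives and ligands of PTPRZ1, 2 were called lower in Npc1-/-. Of the 5 PDGF ligand and receptor genes other than Pdgfra, Pdgfb passed the test, at 21.1, 15.3 and 16.6 scaled TPM in WT and 7.66, 9.31 and 9.14 in Npc1-/- (log2 fold change -0.97, SE 0.143, adjusted p = 0.0427). Pdgfb is made largely by endothelial cells and acts on pericytes. Pdgfa, the ligand of PDGFRA on OPCs, was at 65.1, 63.4 and 64.4 in WT and 57.8, 54.6 and 56.6 in Npc1-/- (log2 fold change -0.19, SE 0.0741, adjusted p = 0.192), apart in every mouse but not called. Of 5 genes for relatives and ligands of PTPRZ1, Ptprg, the closest relative of Ptprz1, fell, from 44.9, 41.0 and 40.6 in WT to 22.7, 26.6 and 27.9 in Npc1-/- (log2 fold change -0.71, SE 0.103, adjusted p = 0.0427). Ptn, the pleiotrophin gene, was at 420, 410 and 356 in WT and 434, 469 and 390 in Npc1-/- (log2 fold change 0.12, adjusted p = 0.603), and Cntn1, a contactin that PTPRZ1 binds, had a log2 fold change of -0.34 (adjusted p = 0.302). The Pdgfb and Ptprg calls were lost on leaving out any mouse but Npc1-/- replicate 3, with adjusted p up to 0.187 for both, while the log2 fold changes stayed at -1.07 to -0.84 and -0.77 to -0.62. Both were also lost with no filter (adjusted p = 0.104 and 0.0994), without a variance trend (0.0648 and 0.0702) and when scaled to the lineage-wide genes (0.233 and 0.259), and Ptprg with the length curve removed (0.0599).

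Matrix partners and the enzymes of chondroitin sulfate did not pass the test. Among 9 lecticans, link proteins and tenascins, 0 were called by limma (1 higher and 2 lower at an unadjusted p below 0.05), and Hapln2, a link protein of mature myelinated fibres, was at 42.9, 67.8 and 88.7 scaled TPM in WT and 116, 184 and 196 in Npc1-/- (log2 fold change 1.33, adjusted p = 0.0662). Among 21 genes of chondroitin sulfate synthesis, the pathway that XYLT1 starts, 0 were called (1 higher and 6 lower at an unadjusted p below 0.05), with a median log2 fold change of -0.21, and 16 of 21 were below the WT range in Npc1-/- replicate 3, where 35.4% of all genes were. Papss1, which makes the sulfate donor, had a log2 fold change of 0.10 (adjusted p = 0.623), and Slc35b2, which carries that donor into the Golgi, had 0.17 (adjusted p = 0.513). Among 8 relatives of C1ql1, Lhfpl3 and Matn4, 0 were called (2 higher and 1 lower at an unadjusted p below 0.05). Lhfpl4, a tetraspan relative of Lhfpl3, was at 20.03, 24.3 and 28.5 in WT and 35.0, 43.2 and 54.0 in Npc1-/- (log2 fold change 0.84, adjusted p = 0.0658), while Lhfpl2 had -0.12 (adjusted p = 0.782).

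Markers of other cells also moved between mice. The summed scaled TPM of 10 astrocyte markers was 764 to 835 in WT and 490, 714 and 950 in Npc1-/- replicates 1 to 3, and Aldoc and Gfap carried much of it. The other 8 summed to 371 to 473 in WT and 204, 256 and 295 in Npc1-/- replicates 1 to 3, a split made after seeing the data. Of all 10 markers, 7 were below every WT mouse in all 3 mutants, beside 14.2% of all genes. In the other direction, 1 marker (Gfap) was above every WT mouse in all 3 mutants, beside 13.3% of all genes. None of the 10 was at 0 and 0 were called by limma, and the median log2 fold change was -0.74. At an unadjusted p below 0.05, 1 was higher and 5 were lower, beside 22.2% of all genes in either direction. Aldoc was at 281, 292 and 340 in WT and 174, 272 and 384 in Npc1-/-, whereas Gfap was above the WT range in all 3 mutants (81.1, 100.2 and 85.2 against 112, 187 and 272). Their part in the values of Ptprz1 and Cspg5, which astrocytes express, was not tested.

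The summed level of 8 pericyte and mural markers was 692 to 956 in WT and 387, 364 and 514 in Npc1-/- replicates 1 to 3. None was at 0 and 0 were called by limma. At an unadjusted p below 0.05, 7 of the 8 were lower, beside 22.2% of all genes in either direction. In 7 of the 8 all mutants were below every WT mouse, beside 14.2% of all genes. Acta2 and Rgs5 had log2 fold changes of -0.95 (adjusted p = 0.0602) and -0.82 (adjusted p = 0.0621). Their part in Cspg4 was not tested, nor was that of 7 fibroblast markers (sum 180 to 319 in WT and 134 to 222 in Npc1-/-, 0 called, 3 lower at an unadjusted p below 0.05) in Pdgfra. Among fibroblast markers, Igf2 and Col1a2 had log2 fold changes of -0.52 (adjusted p = 0.355) and -0.81 (adjusted p = 0.0944). In 2 of the 7 fibroblast markers all mutants were below every WT mouse.

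The sum of 8 endothelial markers was 905 to 1111 in WT and 489, 674 and 766 in Npc1-/- replicates 1 to 3. By limma 0 were called and 7 of the 8 were lower at an unadjusted p below 0.05. Over all genes that p was reached by 22.2%, in either direction. In 7 of the 8 all mutants were below every WT mouse, beside 14.2% of all genes. Cldn5 and Ly6c1 had log2 fold changes of -0.54 (adjusted p = 0.139) and -0.63 (adjusted p = 0.372). The sum of 10 microglia markers was 231 to 359 in WT and 113, 154 and 206 in Npc1-/- replicates 1 to 3. By limma 1 was called, Tmem119 (log2 fold change -1.44, SE 0.219, adjusted p = 0.0442), and 8 of the 10 were lower at an unadjusted p below 0.05. In 7 of the 10 all mutants were below every WT mouse. The endothelial and microglia sums rose from Npc1-/- replicate 1 to 3, where the sum of the 10 progenitor genes fell (419, 335 and 254). Their part in the progenitor values was not tested. The sum of 10 neuron markers was 110 to 150 in WT and 212, 174 and 214 in Npc1-/- replicates 1 to 3. The neurofilament genes Nefl (1.22, adjusted p = 0.0185) and Nefm (1.11, adjusted p = 0.0134) were called higher. At an unadjusted p below 0.05 by limma, 3 of the 10 were higher and 0 lower. In 2 of the 10 all mutants were above every WT mouse, beside 13.3% of all genes. The calls of Tmem119, Nefl and Nefm were lost on leaving out any mouse but Npc1-/- replicate 3, with adjusted p up to 0.193, 0.0812 and 0.0821. Scaled to the lineage-wide genes, all 3 were lost (adjusted p = 0.194, 0.102 and 0.0893). Tmem119 and Nefl were also lost with no filter (0.117 and 0.0528), Tmem119 without a variance trend (0.0678) and Nefm with TPM as deposited (0.0777).

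Transcript length and overlapping genes set limits on single values. The longest annotated transcripts were 12202 bases for Tnr, 12427 for Vcan and 8068 for Ptprz1, and 1473 for C1ql1 and 3115 for Lhfpl3. With a curve on transcript length removed from each library, the log2 fold change was -0.19 for Tnr, 0.03 for Vcan, -0.23 for Ptprz1, 0.42 for C1ql1 and 0.54 for Lhfpl3, and 0 of the 10 were called. Exons of Lhfpl3 overlap A930003O13Rik on the other strand (mean 1.498 TPM as deposited) and exons of Matn4 overlap Rbpjl on the other strand (mean 2.29 TPM). Whether reads were counted by strand is not given in the sources used here, so a share of these reads cannot be assigned.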

How the data were processed

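The authors isolated O4-positive cells with magnetic beads from 6 mice (3 WT, 3 Npc1-/-; 1 library each) and deposited TPM and FPKM per gene, with FPKM being TPM times 1 factor per library. The submitters' processing notes name cutadapt 2.3, STAR 2.7.8a, RSEM 1.3.3 and GRCm38; the published methods name another trimmer, another STAR release and featureCounts, and do not say how TPM was made. Depth was read from the steps of low FPKM in genes with 1 transcript (77.5% to 80.9% of low values were within 0.15 fragments of a whole number, beside 30% for random values), so whole reads were not recovered for all genes and no count test was run.

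TPM was divided by median-of-ratios size factors (0.727 to 1.30) over genes above 0 in every library. Log2(scaled TPM + 0.5) was fitted, for genes whose TPM averaged 0.5 or more, with limma 3.58.1 (lmFit, eBayes with trend, R 4.3.3), with genotype as the only factor, two-sided, with Benjamini-Hochberg adjustment over all 15245 genes. Fold changes on this scale understate those of low genes. With 3 mice against 3, an exact permutation test cannot go below p = 0.1, so none is quoted. Sums and orders were computed with pandas 2.3.3. Positions and lengths are from GENCODE M21.

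The progenitor genes, the other lists and the tests were chosen with earlier results of these data known. From each other list, every called gene was named and, where fewer than 2 were called, the 2 most abundant. The 10 genes with the nearest pattern were also named. The fits and the depth step were tested on simulated data. Alternatives were TPM as deposited, quantile normalization, other pseudocounts and filters, no trend, robust estimation, the replicate number as a block, a transcript length curve, and each mouse left out.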

Additional observations from a re-analysis of the deposited data

How the results depend on the processing

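The number of genes called was 124 (61 higher, 63 lower). It was 924 with TPM as deposited (54 higher, 870 lower; median of all genes -0.33), 239 after quantile normalization, 21 with no filter, 447 at a mean TPM of at least 5, 42 without a variance trend, 12 when scaled to the lineage-wide genes (9 higher, 3 lower) and 5 to 477 with each mouse left out (20, 13 and 8 without WT replicates 1, 2 and 3, and 19, 5 and 477 without Npc1-/- replicates 1, 2 and 3). Of the 10 progenitor genes, 0 were called in all 12 alternatives that kept every mouse, and 0 to 2 with a mouse left out. Their median log2 fold change was -0.39 with TPM as deposited and -0.18 to 0.19 with a mouse left out. The number whose groups were apart was 1 with TPM as deposited (28.2% of all genes), 3 when scaled to the lineage-wide genes (15.9%) and 0 to 4 with a mouse left out (32.6% to 42.9%, since fewer mice overlap less often). The number below the WT range in Npc1-/- replicate 2 was 2 with the length curve removed and 4 to 5 with a mouse left out. The number above the WT range in replicate 2, 4, was 2 with TPM as deposited and 6 with the length curve removed. In replicate 1, the number below the WT range was 3 when scaled to the lineage-wide genes and 1 to 2 with a mouse left out. In replicate 3, the number below was 4 when scaled to the lineage-wide genes and 9 with any other mouse left out. The sign turned for Pdgfra (-0.10) and Cspg5 (-0.31) with TPM as deposited, for Xylt1 after quantile normalization (0.026), and for Vcan (0.028) and Xylt1 (0.11) with the length curve removed. With a mouse left out, Xylt1 ran from -0.25 to 0.12, Matn4 from -0.24 to 0.27 and Cspg5 from -0.15 to 0.32. None of these was called, and the causes were not tested.

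The replicate numbers are shared by WT and Npc1-/- mice in the labels, which do not say what the numbers stand for, and the main fit ignores them. Deviations of same-numbered mice correlated at 0.414, 0.0602 and 0.326, and each mouse correlated best with its own number. For number 2 the lead was slight, as Npc1-/- replicate 2 correlated at 0.0548 with WT replicate 3. The deviations were taken from the mean of each group, so these correlations depend on each other. WT replicate 3 and Npc1-/- replicate 1 correlated at -0.391, and WT replicate 1 and Npc1-/- replicate 3 at -0.310. With a replicate block, 2011 genes were called, the 124 among them, and 1672 with the length curve removed as well (Vcan 0.028 and Xylt1 0.11 again). No progenitor gene was called with the block, the lowest adjusted p being 0.0612 (Ptprz1), beside 13.2% of all genes. Their SEs were smaller with the block, as for C1ql1, at 0.195 against 0.307 in the main fit. Of the lists with no call otherwise, the block called 9 of 14 mature, 5 of 14 committed and 4 of 14 further OPC genes, 3 of 9 lecticans, link proteins and tenascins, 2 of 21 chondroitin sulfate genes, 1 of 8 relatives, 6 of 10 astrocyte, 6 of 8 endothelial, 7 of 8 mural and 3 of 7 fibroblast markers; it also called 3 of 5 PDGF genes, 3 of 10 neuron and 2 of 10 microglia markers. With 3 mice a group, the 95% interval of a progenitor gene spanned 0.47 to 1.44 on the log2 scale.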

Other observations

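The genes with the pattern across the 6 mice nearest to the mean of the 10 progenitor genes were sought among 9137 genes at a mean TPM of at least 5. The measure was the root mean square difference of log2 levels after each was centred on its own mean. The 10 nearest were Telo2, Brinp3, Isg20l2, Hnrnpd, Magee1, Chd7, Trp53bp1, Tspan6, Ints14 and Ptprs, at 0.0438 to 0.0640, where the median over all candidates was 0.274. Chd7, a chromatin remodeller, was at 13.0, 12.1 and 10.3 scaled TPM in WT and 15.2, 12.8 and 8.73 in Npc1-/-. Brinp3 was at 5.67, 5.69 and 5.20 in WT and 7.29, 5.67 and 3.83 in Npc1-/-. Ptprs, a receptor phosphatase that binds chondroitin sulfate, was at 50.7, 49.99 and 41.0 in WT and 59.9, 51.9 and 38.9 in Npc1-/-. These genes were selected by their likeness, so the likeness is a description only.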
